A study of Drosophila melanogaster with 3 samples.

Results

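Long protein-coding genes that carried no thresholded binding summit of CG13894 were described in whole *Drosophila melanogaster* embryos. They were selected on one reading of the deposited peaks: a gene of 20 kb or more on arms 2L, 2R, 3L, 3R, 4 or X, with no summit of the thresholded peak list anywhere between its ends. Of 1013 long coding genes, 289 met the rule, a share of 28.5%, against 84% of all 13945 coding genes of any length. The 724 other long genes held at least 1 thresholded summit. The embryos were 2 to 24 h old by the description of their source, while the labels' separate age entry cannot be an embryo's age and was not used. They came from 1 transgenic line that stably expresses CG13894 fused at its C terminus to GFP, a fluorescent protein used as an epitope. Chromatin was sheared to 200 to 800 bp by sonication and precipitated with an antibody against GFP. The 3 biological replicates form 1 group with no treatment or second genotype. Every sample carries the transgene, no untagged line was compared here, and a whole embryo mixes all its cell types. Nothing in the labels says whether the replicates came from separate collections of embryos.

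A ChIP-seq peak is a stretch where precipitated DNA is more abundant than in a control, and its summit is the position of greatest signal. A gene can be without a strong summit and still hold weaker ones. Long fly genes owe most of their size to introns, which often hold the enhancers of developmental and neural genes. Genes close to the centromere sit in pericentric heterochromatin, which is rich in transposon remnants, and some of them span very large introns. Those features are background to the description below and were not tested as causes.

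The lowest signal in the thresholded list was 216.5, in the authors' deposited peak units, and all 7434 thresholded summits were also the strongest 7434 of the 30000 pooled summits. The remaining 22566 pooled summits are called weaker here. The strongest weaker summits in genes of the set sat just under that limit, at ranks from 7458 onward, and 5 of them are shown as 61 bases of the RefSeq Release 6 reference (dm6), plus strand, 5′ to 3′, with the summit base in capitals. These windows lie outside annotated exons.

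tnc, chr3R:25002980-25003040: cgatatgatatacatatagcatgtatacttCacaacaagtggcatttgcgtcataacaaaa
CG32085, chr3L:11673598-11673658: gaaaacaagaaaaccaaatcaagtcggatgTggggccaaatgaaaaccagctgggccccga
wry, chr2L:1849886-1849946: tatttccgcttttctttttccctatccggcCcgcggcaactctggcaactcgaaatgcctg
DIP-alpha, chrX:3530881-3530941: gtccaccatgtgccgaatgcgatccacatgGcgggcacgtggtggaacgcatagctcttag
Cph, chrX:7189676-7189736: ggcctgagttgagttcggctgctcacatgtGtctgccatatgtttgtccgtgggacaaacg

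The other side of the limit is shown by Tsp and CG45263, long genes kept out of the set by a single thresholded summit each. The only summit of Tsp, which encodes thrombospondin, had a signal of 217.2 and rank 7401. That of CG45263 had a signal of 217.5 and rank 7387. The summit in tnc, which encodes the matrix protein Tenectin, had a signal of 214 and rank 7553. For comparison, the median signal of thresholded summits in long genes was 319.

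Tsp, chr2L:6706452-6706512: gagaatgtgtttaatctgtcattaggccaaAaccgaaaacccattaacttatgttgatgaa
CG45263, chr3R:8449646-8449706: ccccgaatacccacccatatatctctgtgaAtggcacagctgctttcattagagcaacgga

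A further kind of summit lay just outside genes of the set, upstream of a transcription start site (TSS). The sequence there is shown for Dpp10, Abl and orb, whose spans hold no thresholded summit although one lies within 500 bp of a TSS.

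Dpp10, chr2L:6601393-6601453: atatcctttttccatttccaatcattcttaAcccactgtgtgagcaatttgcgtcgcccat
Abl, chr3L:16647963-16648023: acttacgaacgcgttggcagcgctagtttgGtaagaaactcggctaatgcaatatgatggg
orb, chr3R:23281066-23281126: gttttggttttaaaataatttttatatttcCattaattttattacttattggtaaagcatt

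The genes without a thresholded summit were 20.1 to 1966 kb long, with a median of 31.9 kb and quartiles of 23.9 and 46.1 kb. The other long genes had a median of 40.1 kb and reached 394 kb. The share without a summit was 36.6% at 20 to 30 kb (128 of 350) and 31.7% at 30 to 40 kb (64 of 202). It was 22.9% at 40 to 60 kb (53 of 231), 18.4% at 60 to 100 kb (27 of 147) and 20.5% at 100 kb or more (17 of 83). The set therefore held many of the shortest long genes and also the 4 longest coding genes of these arms. Because the rule used the summits, these shares describe the selection and were given no test.

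At the lower length limit, the shortest genes of the set were CG31140 at 20.053 kb, CG17574 at 20.066 kb and erm, which encodes a zinc finger protein of neural progenitors, at 20.124 kb. Just under the limit, E23 at 19955 bp, fdl at 19883 bp and btv at 19848 bp also held no thresholded summit. The weakest single summits that excluded a gene were those of Tsp, boi, CG45263 and RhoGAP19D, at ranks 7383 to 7401.

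Weaker peaks divided the set. A pooled summit was present in 187 of the 289 genes (64.7%) and absent from 102 (35.3%). Across all long genes a pooled summit was present in 89.9%, a figure that the thresholded summits fix for the other long genes. When only weaker pooled summits were counted the share of all long genes was 88.5%, and 15 of the 724 other long genes had none. Among the set, 81 genes had 1 to 4 pooled summits, 65 had 5 to 9 and 41 had 10 or more. The median was 2, against 11 weaker summits in the other long genes.

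Per length, the set held 7.75 pooled summits per 100 kb and the other long genes 32.4, a ratio of 0.239 that the rule largely fixes. With weaker summits alone counted, a choice made after seeing the data, the other long genes held 25.5, a ratio of 0.304. With genes under 5 Mb from the centromeric end of their arm left out of both, the ratio was 0.526. Those genes made up 7.06 Mb of the set and held 75 summits. The set's 15.3 Mb contained 1188 summits counted gene by gene, or 1164 distinct positions, since 18 of its genes overlap another gene of the set. Within the set, the density ran from 0 to 63.6 per 100 kb. The 41 genes with 10 or more summits, picked here for that count, had a median density of 28.3.

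**Figure D1:**
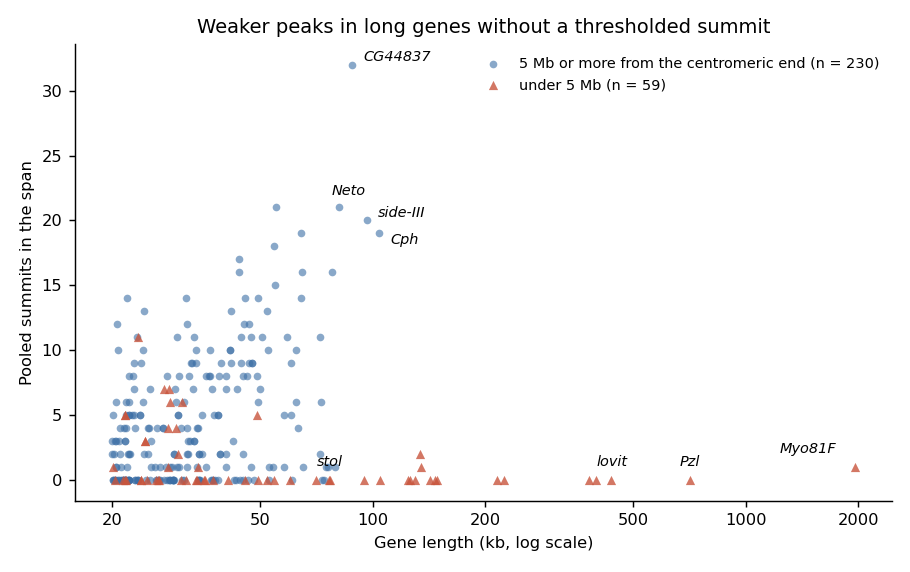
Number of pooled summits in the span (vertical axis) against gene length in kb (horizontal log axis) for each of the 289 genes, with circles for genes 5 Mb or more from the centromeric end of their arm and triangles for nearer ones. The longest genes, up to Myo81F at 1966 kb, hold 0 to 2 summits, while the distal genes CG44837 and Cph reach 32 and 19.

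Each replicate's own list of 30000 peaks left a similar number of genes empty, although not always the same ones. A summit lay in 186, 190 and 203 of the 289 genes in replicates 1, 2 and 3, a mean of 66.8% ± 3.08 (SD, n = 3). In the other long genes it was 99.9% ± 0.138, a value that their thresholded summits largely fix. Summit density in the set relative to the other long genes, with strong and weaker peaks counted together, was 0.239, 0.230 and 0.228 in the 3 replicates, and the rule also largely fixes these ratios. The lists share embryos of 1 line with the thresholded list, so these values are no separate test of the rule.

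All 3 replicate lists had a summit in 171 genes of the set (59.2%), against 88.1% of all long genes. In 19 genes 2 lists had one, in 28 genes 1 list, and in 71 genes none. Those 71 genes (24.6%) were also empty in the pooled list, so the other 31 of the 102 genes without a pooled summit had one in at least 1 replicate. When the rule was applied to the strongest 7434 peaks of each replicate alone, 296, 291 and 310 long genes had none. Of the 289 genes, 258, 246 and 248 were among these, which is 89.3%, 85.1% and 85.8% of the set and 87.2%, 84.5% and 80% of the replicate's own genes.

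Position along the arm marked the first kind of gene in the set. The set held 25 of 36 long genes (69.4%) under 2 Mb from the centromeric end of the arm and 34 of 76 (44.7%) at 2 to 5 Mb. At 5 to 10 Mb it held 50 of 206 (24.3%) and beyond 10 Mb 180 of 695 (25.9%). Under 5 Mb, 40 of 59 genes of the set had no pooled summit, while 5 Mb or more away 62 of 230 had none. Weaker summits were at 1.06 per 100 kb in the set under 5 Mb and at 23.7 in the other long genes there. Farther out the densities were 13.5 and 25.6.

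**Figure D2:**
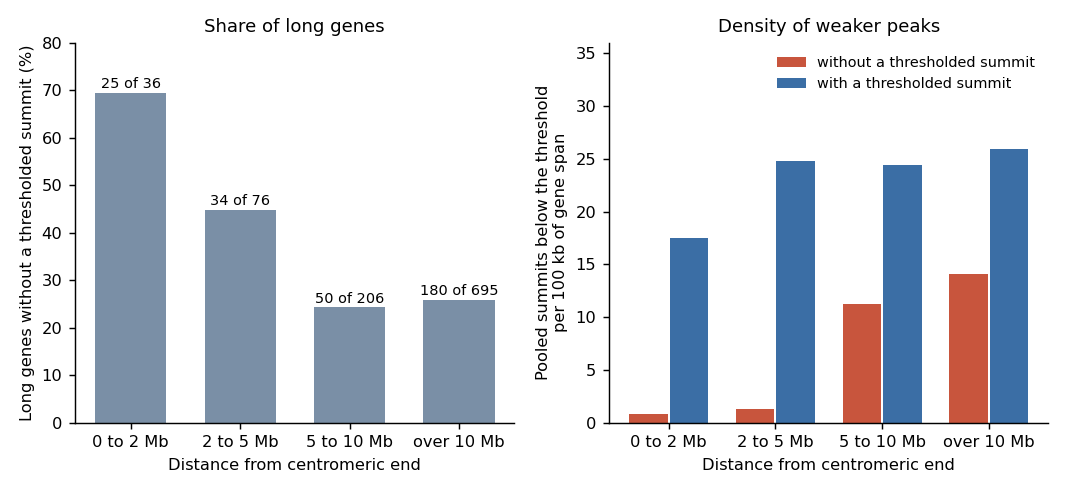
Left, percentage of long genes without a thresholded summit by distance of the gene midpoint from the centromeric end of the arm in Mb, with counts above the bars. Right, pooled summits below the threshold per 100 kb of gene span for the same classes, in genes without (red) and with (blue) a thresholded summit. The share is 69.4% under 2 Mb and 25.9% beyond 10 Mb, and the density in the set is 0.832 under 2 Mb against 14.1 beyond 10 Mb. Arm 4 is short and counts as under 2 Mb throughout.

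The arms differed in this zone. On 2R all 15 long genes under 5 Mb belonged to the set, and none of them held a pooled summit. On 3L 10 of 11 did, with 1 pooled summit among them. On 3R 6 of 16 belonged, also with 1 pooled summit. On 2L the count was 12 of 32 and on X 9 of 25, and these genes held 39 and 19 pooled summits. Chromosome 4, the dot chromosome of 1.35 Mb, contributed 7 of its 13 long genes.

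Over whole arms the share without a summit was 28.8% on 2L (53 of 184), 31.9% on 2R (58 of 182), 23.7% on 3L (45 of 190), 30.9% on 3R (76 of 246), 25.3% on X (50 of 198) and 53.8% on 4.

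Repeat content moved with this position. The soft-masked share of the sequence, which marks repeats in the reference, had a median of 30.1% in genes of the set under 5 Mb and 19.9% in the other long genes there. This contrast differed by arm. The medians were 37.2% and 18.1% on 3R and 22.2% and 19.3% on X, but 17.5% and 19.2% on 2L and 26.5% and 28.7% on 4. On 3L, where 10 of 11 long genes were in the set, they were 37.4% and 28.4%. On 2R all 15 were in the set, with a median of 32.8%. At 5 Mb or more the medians were 16.8% and 17.6%. All peaks, in genes or not, were also sparser near the centromeric ends of the arms other than 4, where the thresholded list had 18.2 summits per Mb against 64.3 elsewhere. In the replicate lists it was 76.7 to 78.4 against 258 to 259 per Mb. The part of repeats in the missing peaks was not tested.

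The 10 longest genes of the set all lay under 5 Mb from a centromeric end. Myo81F, an unconventional myosin gene on 3R (567076 to 2532932, plus strand), was the longest. Its span held 1 pooled summit, at rank 12468, and 1 summit in each of the 3 replicates. Exons made up 0.332% of its length, and 40.9% was soft-masked.

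Pzl, a relative of the mechanosensitive channel gene Piezo, is its neighbour on 3R (2554162 to 3263582, minus strand). It spans 709 kb without a summit in any list. lovit on 3L, which encodes a histamine transporter of photoreceptors, was likewise empty over 434 kb. Snap25, whose product is a SNARE of synaptic vesicle fusion, was empty over 225 kb. Gprk1, a G protein-coupled receptor kinase gene, was empty over 149 kb, CG40470 over 147 kb and Dbp80, a DEAD-box RNA helicase gene, over 143 kb. Parp1, which encodes the poly(ADP-ribose) polymerase, and dpr21 were the next longest without a summit in any list, at 126 and 125 kb.

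The remaining 3 of the 10 longest had a summit in 1 or 2 replicate lists. CG17684 (396 kb) had 0, 1 and 0 summits in replicates 1, 2 and 3. DIP-lambda (379 kb) had 0, 0 and 1, and l(3)80Fg (216 kb) had 0, 1 and 1. None of these had a pooled summit. For DIP-lambda the nearest thresholded summit lay 4962538 bp from its end, the greatest distance in the set.

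The 40 genes without a pooled summit under 5 Mb had a median length of 50.6 kb, an exonic share of 5.9% and 2 annotated TSSs within 50 kb of the gene's midpoint. The 62 without one farther out differed from these 40. Their median length was 27.2 kb, their exonic share 17.5%, their soft-masked share 16.6%, and 19.5 TSSs lay within 50 kb. In the other long genes the medians were 40.1 kb, 16.3%, 17.8% and 16.5 TSSs. The exonic and soft-masked shares of the 62 were therefore not particular to them. The 41 genes with 10 or more summits had a median length of 45.4 kb, an exonic share of 12.3% and 14 TSSs.

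At 40% exon or more the set held 24 of 62 long genes (38.7%), against 30.1%, 28.3% and 25.6% in the classes under 10%, 10 to 20% and 20 to 40%. With genes under 5 Mb left out, the order was 21.2%, 26.8%, 23.6% and 40.7%. Length was not held equal across the classes. Genes of the set had a median of 27 kb at 40% exon or more and 59.4 kb under 10%. Of all long genes at 20 to 30 kb, whatever their exonic share, 36.6% were in the set. Weaker summits in the set were at 4.38, 12.1, 12.7 and 5.38 per 100 kb in these classes, from the least to the most exonic. In the other long genes they were at 23.1, 27.2, 27.7 and 15.6. With genes under 5 Mb left out, the set's densities were 17.3, 12.8, 13.4 and 5.81. Genes with 1 annotated TSS were in the set in 37.6% of cases, those with 2 in 27.4% and those with 3 or more in 19.7%. The rule does not count a summit just upstream of the span's outermost TSS, whereas further TSSs lie inside the span. The rule itself can therefore shape these shares, and its part was not tested.

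Gene kinds were compared through 13 lists built on gene symbols, each read against the background of 28.5%. That background is not matched for length. The share was 36.6% at 20 to 30 kb and 18.4% at 60 to 100 kb, and the lists differ in gene length. The counts are small for most lists and no test of enrichment was run. Counts of empty genes are read against the whole set, where 35.3% had no pooled summit and 24.6% had none in any list. Summits are counted in the span only. Some genes named by list below also had a thresholded summit outside it, within 500 bp upstream of a TSS. They are dpr11, side-II, Cngl, eag, Ca-beta, ey, sls, rut, Gycbeta100B, Pkc53E, Vmat, stnA and stnB. The Dpr and DIP immunoglobulin proteins bind each other between neurons, and 11 of their 18 long genes (61.1%) were in the set. Of these, 8 held 5 or more pooled summits and 2 held none.

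The longest distal Dpr and DIP genes carried peaks in all replicates. DIP-alpha on X (64.4 kb) had 14 pooled summits and 14, 16 and 10 in replicates 1 to 3. dpr11 on 3R (64.2 kb) had 19 pooled and 13, 17 and 14. The 2 without a pooled summit were the pericentric genes DIP-lambda and dpr21. The family's 9 other genes in the set held 2 to 19 pooled summits.

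The Side proteins and their Beat receptors, which guide motor axons, had 6 of 18 long genes in the set, a share of 33.3%. Over all long genes the share was 28.5%, and at 40 to 60 kb it was 22.9%. The 6 genes had a median length of 59.7 kb. None of the 6 was empty. side-III (96.7 kb) held 20 pooled summits and 23, 17 and 19 in the replicates. side-VI (77.8 kb) held 16, with 9, 11 and 16. side-II (64.8 kb) held 16, with 14, 18 and 13, and side-VIII (54.6 kb) 15, with 12, 14 and 11. Their weaker summits were at 21.7 per 100 kb, close to the 20.8 of the family's other long genes.

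Other adhesion and guidance genes were in the set in 9 of 44 cases (20.5%), and again none was empty. Sema2b, a secreted semaphorin gene, had 12 pooled summits. klg, which encodes the adhesion protein Klingon, had 6, and Dscam4, an immunoglobulin receptor gene, had 16. On this list the cadherin genes of the set, ds and Cad86C, had few. Its other long cadherin genes, Cad87A, CadN, CadN2, ft and stan, each held a thresholded summit. ds encodes Dachsous, and its 75 kb held 1 pooled summit and 1, 2 and 3 in the replicates. Cad86C, named after its values were seen, held 1 pooled and 1, 1 and 2 over 22 kb. Of 9 long genes for leucine-rich repeat surface proteins only kek2 was in the set, with 8 pooled summits.

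Ion channels gave both kinds of gene. The set held 7 of 20 long genes for cation channels and their subunits (35%). Cngl, a relative of cyclic nucleotide-gated channels, had 21 pooled summits over 55.2 kb, with 20, 13 and 15 in the replicates. eag, the ether-a-go-go potassium channel gene, had 18 over 54.5 kb, with 15, 19 and 14. Ca-beta, a calcium channel subunit gene, had 9. stol, which encodes an accessory calcium channel subunit, was longer at 74.1 kb and empty in all lists. The 3 ligand-gated channel genes of 11, pHCl-1, GluClalpha and Nmdar2, held 11, 11 and 6 pooled summits.

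Receptors for transmitters and peptides that signal through G proteins had 12 of 26 long genes in the set (46.2%). The octopamine receptor gene Octalpha2R had 7 pooled summits, with 11, 7 and 7 in the replicates. The dopamine receptor gene Dop1R1 had 6, with 11, 7 and 4, and SPR, the sex peptide receptor gene, had 9, with 9, 9 and 10. RYa-R, whose product binds RYamide peptides, was the longest of them at 61 kb and was empty in every list. In total 4 of the 12 were empty in every list and 6 held 5 or more pooled summits. Over the whole set 71 of 289 (24.6%) were empty in every list, 65 held 5 to 9 pooled summits and 41 held 10 or more.

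Transcription factors formed the largest functional list. Of 84 long genes on the list, 30 were in the set (35.7%), and 17 of these 30 had no pooled summit. No list at all held a summit in 14. Over the whole set these counts were 102 and 71 of 289 (35.3% and 24.6%), and at 20 to 30 kb 51 and 36 of 128. Only 7 of the 30 lay under 5 Mb from a centromeric end. Weaker summits were at 5.52 per 100 kb, against 25.8 in the 54 other long genes of the list. At 20 to 30 kb 36.6% of all long genes were in the set, and the 30 factors had a median length of 28.9 kb.

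The longest of these were pros and bi. pros encodes the homeodomain protein that neural stem cells pass to their daughters. It had 1 pooled summit over 79.1 kb and 0, 2 and 1 in the replicates. bi, a T-box gene of wing and optic lobe, was better covered over 72.8 kb, with 6 pooled summits and 5, 7 and 6. Abd-B, the posterior Hox gene, had no pooled summit over 45 kb and 1, 0 and 1 in the replicates. svp, a nuclear receptor gene of the COUP type, had none pooled and 0, 0 and 4, so its peaks rested on replicate 3.

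Of the 6 long Hox genes 4 were in the set, and Antp and Ubx held a thresholded summit. The 3 beside Abd-B are named after their values were seen. Scr had no pooled summit over 26.9 kb, pb had 2 over 34.3 kb, and abd-A had 8 over 22.8 kb with 10, 5 and 5 in the replicates. abd-A and Abd-B lie in the same complex, and their counts of pooled summits were 8 and 0. Among the shorter factors chosen in the same way, ey, the Pax6 gene on chromosome 4, held 11 pooled summits over 23.5 kb, whereas dsx, ap and Dll were empty in every list.

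**Figure D3:**
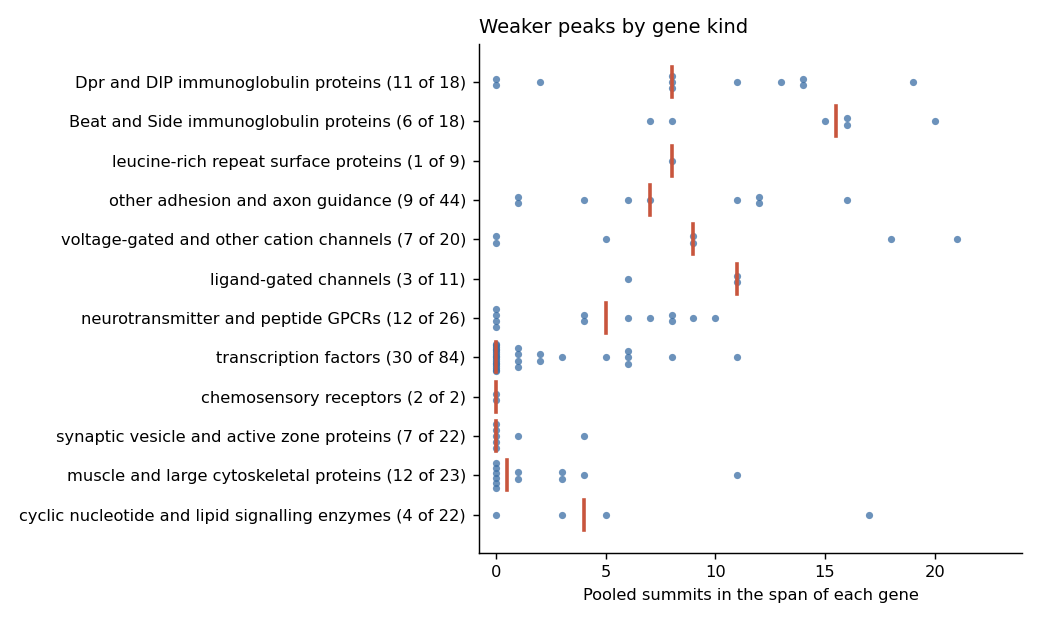
Pooled summits in the span of each gene of the set (points, horizontal axis) by gene list, with the list median as a red bar and, in brackets, genes of the set out of long genes on the list. Medians are 15.5 for Beat and Side genes and 0 for transcription factors and for synaptic vesicle and active zone genes.

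Large structural proteins of muscle and the cytoskeleton were in the set in 12 of 23 cases (52.2%), and 6 of these had no pooled summit. Over the whole set 102 of 289 (35.3%) had none. The 12 genes had a median exonic share of 40.9%. sls encodes a titin-like spring of the sarcomere. It had 1 pooled summit over 75.9 kb, 0, 0 and 1 in the replicates, and an exonic share of 77.7%. A thresholded summit of signal 607 lay outside the span, 258 bp upstream of its TSS. bt, the projectin gene on chromosome 4, and Strn-Mlck, a myosin light chain kinase gene, were empty in every list, with exonic shares of 53.8% and 77%. Myo81F, also on this list, was at the other extreme of exonic share.

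Synaptic vesicle and active zone genes contributed 7 of 22 (31.8%), near the background, and 5 of the 7 had no pooled summit. Over the whole set 102 of 289 (35.3%) had none. Among the list's 5, Vmat, stnA and stnB had a thresholded summit outside the span, 178, 410 and 410 bp upstream of a TSS. Snap25 was empty. Cadps, which primes dense-core vesicles, had none pooled and 1, 0 and 3 in the replicates. Syn, the synapsin gene, had 4 in the pooled list and 4 in each replicate. Rbp, an active zone scaffold gene, had 1 pooled and 2, 2 and 1. The list's 4 genes under 5 Mb and the shared span of stnA and stnB, which are counted as 2 genes, both limit this count.

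Cyclic nucleotide and lipid signalling enzymes gave 4 of 22 (18.2%). Gycbeta100B, a guanylyl cyclase subunit gene, had 17 pooled summits, rut, the adenylyl cyclase gene named for its memory mutant, had 5, Pkc53E had 3 and Pkcdelta had none. Both long chemosensory receptor genes, Ir41a and Ir40a, were in the set and empty in every list, and both lay under 5 Mb. Genes known only by a CG number were 56 of 202 (27.7%), at the background.

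**Figure D4:**
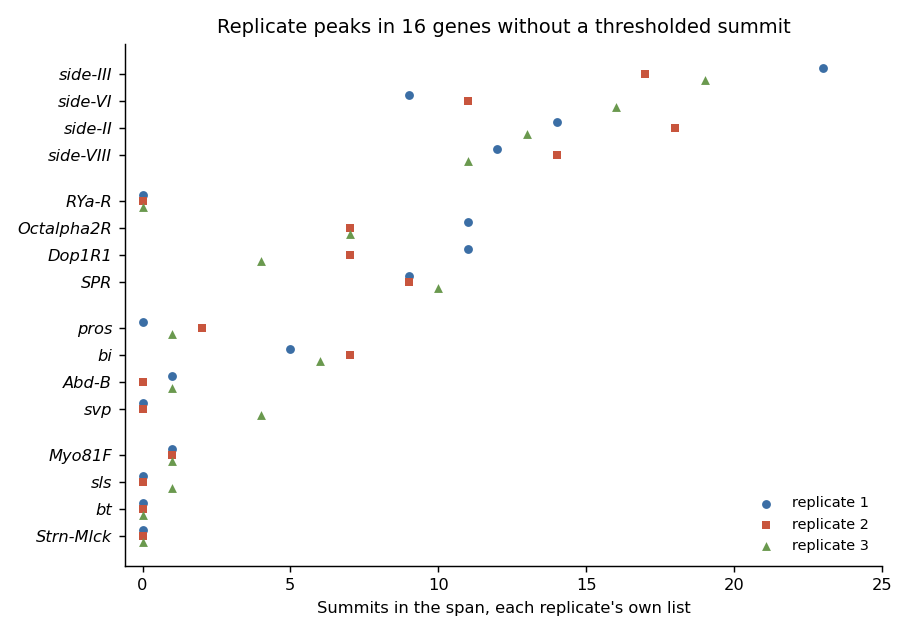
Summits in the span in each replicate's own list (horizontal axis) for the 4 longest genes of the set from 4 lists, from top to bottom Beat and Side, G protein-coupled receptor, transcription factor and muscle or cytoskeletal genes. The Side genes hold 9 to 23 summits in every replicate, and bt, Strn-Mlck and RYa-R hold 0 in all 3.

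Cph, CG44837 and Neto, on none of the lists built on function, lay 5 Mb or more from a centromeric end and were named after their values were seen. Cph, the zinc finger gene Chronophage, spans 104.2 kb on X and held 19 pooled summits, with 25, 18 and 16 in the replicates. Neto encodes an accessory subunit of glutamate receptors at the neuromuscular junction. It spans 81.4 kb on X and held 21, with 17, 10 and 16. CG44837 on 3L had the most of any gene in the set, 32 over 88.2 kb, with 26, 27 and 25. None of these summits entered the thresholded list, and the best of them ranked 7747 in Cph, 10361 in Neto and 8117 in CG44837.

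The summit nearest to the threshold was shared by ITP, the ion transport peptide gene, and CG4622, which overlap on 2R. It ranked 7458 with a signal of 216 and lay 195 bp from a TSS. Cda4, a chitin deacetylase gene on X, followed at rank 7552 and 113 bp from a TSS. tnc and CG32085 followed at ranks 7553 and 7557 in introns, and Pgant2, which encodes a glycosyltransferase of O-linked glycans, at 7580. Replicates ranked these summits differently. The peak over the tnc summit ranked 11716, 7542 and 6861 in replicates 1 to 3, and that of CG32085 ranked 5393, 11867 and 10423.

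Most weaker summits in the set were intronic. Of 1164, 950 (81.6%) lay in introns, 144 (12.4%) within 500 bp of a TSS, 24 (2.06%) in coding exons and 46 (3.95%) in other exons. In the other long genes 85% of 9170 weaker summits were intronic and 10.8% near a TSS, and of their thresholded summits 22.5% were near a TSS. All 3 replicate lists had a peak over 469 of the set's weaker summits (40.3%), against 46.6% in the other long genes and 94.9% for thresholded summits. The median signal was 92.4 in the set and 97.7 in the other long genes. No test was run on these differences, since summits within a gene and a library are not independent.

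Sequence around the weaker summits was compared with 200 bp tiles of the spans, in the 168 genes of the set that held a weaker summit and lay 5 Mb or more from a centromeric end, a restriction chosen after seeing the data. Windows of 200 bp on their 1093 summits had a median GC content of 46%, and the tiles had 42%. The letters CACACACA, on either strand, were in 10.9% of the windows and 6.06% of the tiles. GAGAGAGA was in 2.93% and 1.3%, and the Zelda motif CAGGTAG in 1.37% (15 windows) and 0.913%. The DREF element TATCGATA was in 0.274% and 0.28%, and GGTCACACT, a core promoter motif, in 0.0915% and 0.063%. Over all weaker summits of the other long genes the shares were 10.1% for CACACACA, 2.98% for GAGAGAGA, 1.04% for CAGGTAG, 0.305% for TATCGATA and 0.251% for GGTCACACT. A match is only a run of letters and does not show a bound factor.

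Some genes of the set had a thresholded summit just outside the span. It lay within 500 bp of a TSS in 54 of the 289 genes (18.7%), at a median of 149 bp upstream. A thresholded summit at that distance, inside or outside, was found in 443 of the 724 other long genes (61.2%) and in 49.1% of all long genes. The rule removes every gene with a summit inside the span, so the 2 shares are not like for like.

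The strongest of these summits reached signals well within the thresholded list. That of Dpp10, a gene of the dipeptidyl peptidase family, had a signal of 1182 and lay 355 bp upstream. Vmat, the vesicular monoamine transporter gene, had 1034 at 178 bp, and Apoltp, a lipid transfer lipoprotein gene, had 860 at 223 bp. Abl, the tyrosine kinase gene, had 820 at 111 bp, CG42699 761 at 436 bp and orb, an RNA-binding protein gene of the germ line, 759 at 240 bp. Mical, an actin-oxidising enzyme gene, had 664 at 376 bp and robo2, a Slit receptor gene, 642 at 15 bp. The span of Dpp10 held 9 weaker summits and that of Mical 10, while those of Vmat and Apoltp held none in the pooled list. TATCGATA was in the 200 bp windows of 7 of the 53 distinct summits of this kind (13.2%), those of Abl and Mical among them, and in 1.48% of all pooled windows. These shares are not like for like. The 53 summits are all thresholded and near a TSS, whereas 26.2% of the pooled summits lay within 500 bp of a TSS and most were weaker. The share among all thresholded summits near a TSS was not computed, so the difference cannot be assigned to genes of the set.

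Thresholded summits were within 1 kb of the span in 65 genes, within 10 kb in 146 and within 100 kb in 249. The median distance was 9619 bp. For genes without a pooled summit it was 20611 bp, and for those of them under 5 Mb from the centromeric end 992529 bp. Camta, a calmodulin-binding transcription factor gene named after its values were seen, was empty in every list with a thresholded summit 54 bp from its span. That was the lowest distance among the 71 genes in no list, while the lowest in the set was 1 bp.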

How the data were processed

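ChIP-seq peak lists of 3 replicates of 1 group were used: 1 list per replicate, 1 on pooled replicates and 1 thresholded on reproducibility between replicates, per the labels. Signal values are the authors' deposited peak scores and served to rank peaks within a list. The deposited −log10 q-value is capped and was not used further. The deposited summit offset gave the summit, and 5 offsets past the peak end were taken as written. The sources used here do not name the aligner, the peak caller or the threshold. No file gives read counts, so depth and the precision it gives are unknown. Each replicate and pooled list stops at 30000 peaks, so no listed peak is not absence of binding.

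Genes came from Ensembl release 115 and sequences from the RefSeq Release 6 reference, both dm6. As a check, 99.8% of 30593 annotated start codons read ATG. Spans, exons and TSSs were intersected with summits in Python 3.11.15 (pandas 2.3.3, numpy 2.4.6), after a check of the counting on simulated data. Arm distance runs from the gene midpoint to the centromeric end.

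The members and gene lists were chosen with earlier results of these data known, so no test was run and all values are descriptions. Genes named are the 10 longest, the 6 with the strongest pooled summit, 8 with a summit just outside a TSS, the 8 longest in no list, the 4 longest per gene list and those at the limits of the rule.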

Additional observations from a re-analysis of the deposited data

How the results depend on the processing

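Of 66 recomputed values, 32 moved by less than the spread between replicates, or under 1.5 times for counts, and 34 moved more. The number of genes was 446 at a minimum of 15 kb, 161 at 30 kb and 515 with the stronger 50% of thresholded summits. The share with a pooled summit was then 57.8%, 68.3% and 80.2%, that with a replicate summit 60.01% at 15 kb and 81.2% with the stronger summits, and the median length 23.4, 44.5 and 33.7 kb. With only the 15000 strongest peaks of the pooled list and of each replicate list kept, the pooled and replicate shares were 49.1% and 50.2%. The density of pooled summits relative to other long genes was 0.239 under the rule. It was 0.218 when any base of a thresholded peak counted, 0.195 with spans extended by 500 bp and 0.217 at 30 kb. With the stronger summits it was 0.421, and with the 15000 strongest peaks 0.135. The share under 5 Mb from the centromeric end was 22% with extended spans, 19.3% at 15 kb, 23% at 30 kb and 14.4% with the stronger summits. The share with a summit just outside was 9.27% by any base, 0% with extended spans by construction, 16.6% at 15 kb and 9.13% with the stronger summits. Leaving out each replicate gave densities of 0.243 to 0.254 and median lengths of 32 to 32.4 kb.

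Alternatives chosen after seeing the data gave, for genes 5 Mb or more out, a pooled share of 73%, a replicate share of 73.5%, a density of 0.414 and a share with a summit just outside of 20%. Counting weaker summits alone gave a density of 0.304. Where another cause than fewer genes or summits is involved, the cause was not tested. No paired analysis was possible because there is 1 group. Peak lists cut at a fixed length limit what an empty gene shows.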
